A study of Mus musculus with 9 samples.

Results

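Matrix proteases and their inhibitors are described here through the open chromatin of 9 genes: Timp2, Timp3, Mmp2, Mmp3, Mmp9, Mmp13, Mmp14, Plau and Plaur. A peak, a region of 501 bases, belonged to a gene when its centre lay inside it, or else when that gene had the nearest annotated end of any protein-coding gene, within 50 kb. This gave 51 of the 75936 peaks of the table: 15 for Timp2, 7 for Timp3, 5 for Mmp2, 3 for Mmp9, 4 for Mmp13, 4 for Mmp14, 8 for Plau and 5 for Plaur. Mmp3 had 0 peaks. Values came from bulk ATAC-seq, in which a transposase cuts open DNA, of D2A1-d, a line of mouse breast carcinoma cells kept in culture. Cells labelled wild type carried a non-targeting hairpin (NTC, n = 3), and cells labelled Med1 knockdown carried hairpin shMed1 #2 (n = 3) or shMed1 #4 (n = 3). MED1 is a subunit of Mediator, the coactivator complex that joins transcription factors to RNA polymerase II, and the comparisons ask what each hairpin does to accessibility. The labels give all 9 libraries as untreated and name no other allele or agent. The sources used here do not give the hairpin sequences, nor say whether the transduced cells were pools or clones.

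Matrix metalloproteinases (MMPs) are zinc enzymes that cut collagens, laminins and other matrix proteins, and TIMPs are secreted proteins that bind and block them. In a parallel system the receptor encoded by Plaur (uPAR) holds urokinase, the product of Plau, at the cell surface, where it turns plasminogen into plasmin, which cleaves fibrin and activates several MMPs. In breast carcinoma both systems are known for their part in invasion, and several of these genes are textbook targets of AP-1, the dimer of Fos and Jun proteins.

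RefSeq promoter sequences (GRCm38.p6, the build of the peak table, 250 bases before to 50 after the annotated start) were given for 6 of the 9 genes. Those shown set start regions covered by a peak beside start regions that no peak of the table overlapped. Both strands were searched for the AP-1 motif, spelled TGANTCA, the TATA box, searched as the letters TATAAA, the GC box, for which the search used GGGCGG, the box named after its letters CCAAT, and an NF-kappaB-like motif. Matches stand in capitals. In the Plaur sequence the GGGCGG matches stand end to end, and the last pair shares a base. All are written 5′ to 3′ on the strand of the gene.
Mmp13, chr9:7272264-7272563, plus strand: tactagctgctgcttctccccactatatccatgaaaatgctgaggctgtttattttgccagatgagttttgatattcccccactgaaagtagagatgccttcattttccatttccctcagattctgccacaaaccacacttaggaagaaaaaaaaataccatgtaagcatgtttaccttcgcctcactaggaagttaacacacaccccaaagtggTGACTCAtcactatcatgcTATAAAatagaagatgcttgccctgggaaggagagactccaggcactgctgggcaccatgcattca
Mmp3, chr9:7445572-7445871, plus strand: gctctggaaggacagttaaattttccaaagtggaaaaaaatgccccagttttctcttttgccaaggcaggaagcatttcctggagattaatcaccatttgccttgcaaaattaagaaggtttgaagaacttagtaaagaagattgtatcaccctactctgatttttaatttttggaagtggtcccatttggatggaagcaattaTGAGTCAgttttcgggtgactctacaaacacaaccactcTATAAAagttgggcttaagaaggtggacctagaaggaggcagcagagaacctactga
Plaur, chr7:24462233-24462532, plus strand: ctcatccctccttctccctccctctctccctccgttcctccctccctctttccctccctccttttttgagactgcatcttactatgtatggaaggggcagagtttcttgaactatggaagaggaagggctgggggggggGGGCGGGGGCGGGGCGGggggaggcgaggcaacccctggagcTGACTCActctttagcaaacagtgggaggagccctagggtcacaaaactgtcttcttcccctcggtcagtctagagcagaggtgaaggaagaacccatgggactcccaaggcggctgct
Timp2, chr11:118355362-118355661, minus strand: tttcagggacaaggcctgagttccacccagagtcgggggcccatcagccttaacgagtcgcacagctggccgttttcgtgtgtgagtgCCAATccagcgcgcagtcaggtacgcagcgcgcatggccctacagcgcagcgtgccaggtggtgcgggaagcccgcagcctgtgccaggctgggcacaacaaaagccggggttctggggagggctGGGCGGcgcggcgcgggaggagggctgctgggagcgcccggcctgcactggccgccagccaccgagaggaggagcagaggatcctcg
Timp3, chr10:86300162-86300461, plus strand: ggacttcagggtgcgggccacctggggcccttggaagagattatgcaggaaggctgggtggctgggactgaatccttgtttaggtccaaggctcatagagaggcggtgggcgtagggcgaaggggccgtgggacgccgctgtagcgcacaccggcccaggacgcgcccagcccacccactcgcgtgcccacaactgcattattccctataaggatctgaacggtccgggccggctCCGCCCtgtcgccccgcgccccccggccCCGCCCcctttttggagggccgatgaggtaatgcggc

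The Mmp13 and Mmp3 sequences each held 1 AP-1 match, TGACTCA beginning 35 bases before the start of Mmp13 and TGAGTCA beginning 46 bases before that of Mmp3, and 1 TATAAA. Each held 1 CpG dinucleotide in its 300 bases. Plaur held TGACTCA 69 bases before its start and 3 GC boxes. Timp2 and Timp3 had 25 and 24 CpG dinucleotides, 1 and 2 GC boxes, and neither an AP-1 nor a TATAAA match. Over all 32851 promoters of the RefSeq table, 7.81% held TGANTCA, 13.6% TATAAA, 35.7% GGGCGG, 37.4% CCAAT and 3.24% the NF-kappaB-like motif, and the median was 7 CpG. Among these 5 genes a peak covered all 300 bases of the Mmp13 sequence, 199 of Timp2 and 181 of Plaur, with the AP-1 matches of Mmp13 and Plaur inside it. The Timp3 peak began 66 bases past the end of its sequence, 115 bases after the annotated start. No peak of the table overlapped the Mmp3 sequence, and the nearest one to either end of Mmp3 had its centre 46242 bases away and belonged to Mmp10. The Mmp14 sequence, not shown, held 2 GC boxes and 2 CCAAT matches and was not overlapped by a peak either. A match is only a description of the letters.

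The unit of all values below is the normalized count, that is, reads in a peak divided by a size factor of the library. In NTC the 51 peaks had mean values from 47.9 to 3091, with a median of 585, against a median of 208 over all peaks. Tests were limma contrasts on log2 of the value plus 1 over 75930 peaks, all 51 included, with Benjamini-Hochberg adjustment over all of them, and rose or fell is written for an adjusted p under 0.05. Errors of group values are SDs (n = 3), and those of log2 fold changes are standard errors. A bulk library cannot tell a change in every cell from a change in the share of cells with an open site. Comparisons of either hairpin with NTC share the NTC libraries.

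In the mean of both hairpins against NTC, 17 of the 51 peaks rose and 4 fell, which is 41.2%, beside 39.8% of all peaks tested. The shares by direction over all peaks were 22.1% higher and 17.7% lower. Summed over all peaks, the values averaged 41.3 M per library in NTC, 43.9 M with #2 and 43.4 M with #4 (M, the SI prefix mega). With libraries scaled to equal totals 16 members rose and 9 fell in the mean, the median of all peaks stood at -0.08 with #4 and -0.10 with #2, and over all peaks 12104 were higher and 21010 lower in the mean, 13498 and 22132 with #2, and 9329 and 14938 with #4. With #2, 19 rose and 7 fell (50.98%, beside 43.1% of all peaks, 23.6% higher and 19.5% lower), or 17 and 10 with equal totals. With #4, 15 rose and 5 fell (39.2%, beside 29.4%, of which 17.3% higher and 12.1% lower). When NTC replicate 2, NTC replicate 3 or shMed1 #4 replicate 2 was left out, only 3 fell with #4. In the mean, the share of members called, both directions together, was thus near that of all peaks. The members were stronger than all peaks at the median in NTC, and no share for peaks of like strength was worked out. Among the members, 61.5% of the 26 stronger and 20% of the 25 weaker peaks were called in the mean. Median log2 changes were 0.09 over the members and -0.01 over all peaks in the mean, 0.14 and -0.02 with #2, and 0.10 and -0.01 with #4. Of the 17 higher peaks, 15 had all 6 hairpin libraries above all 3 NTC libraries. The matching share among all peaks called higher was not worked out, so this count has no background beside it. The plot of fold changes by gene shows the higher calls gathered in Timp2 and Plaur.

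**Figure D1:**
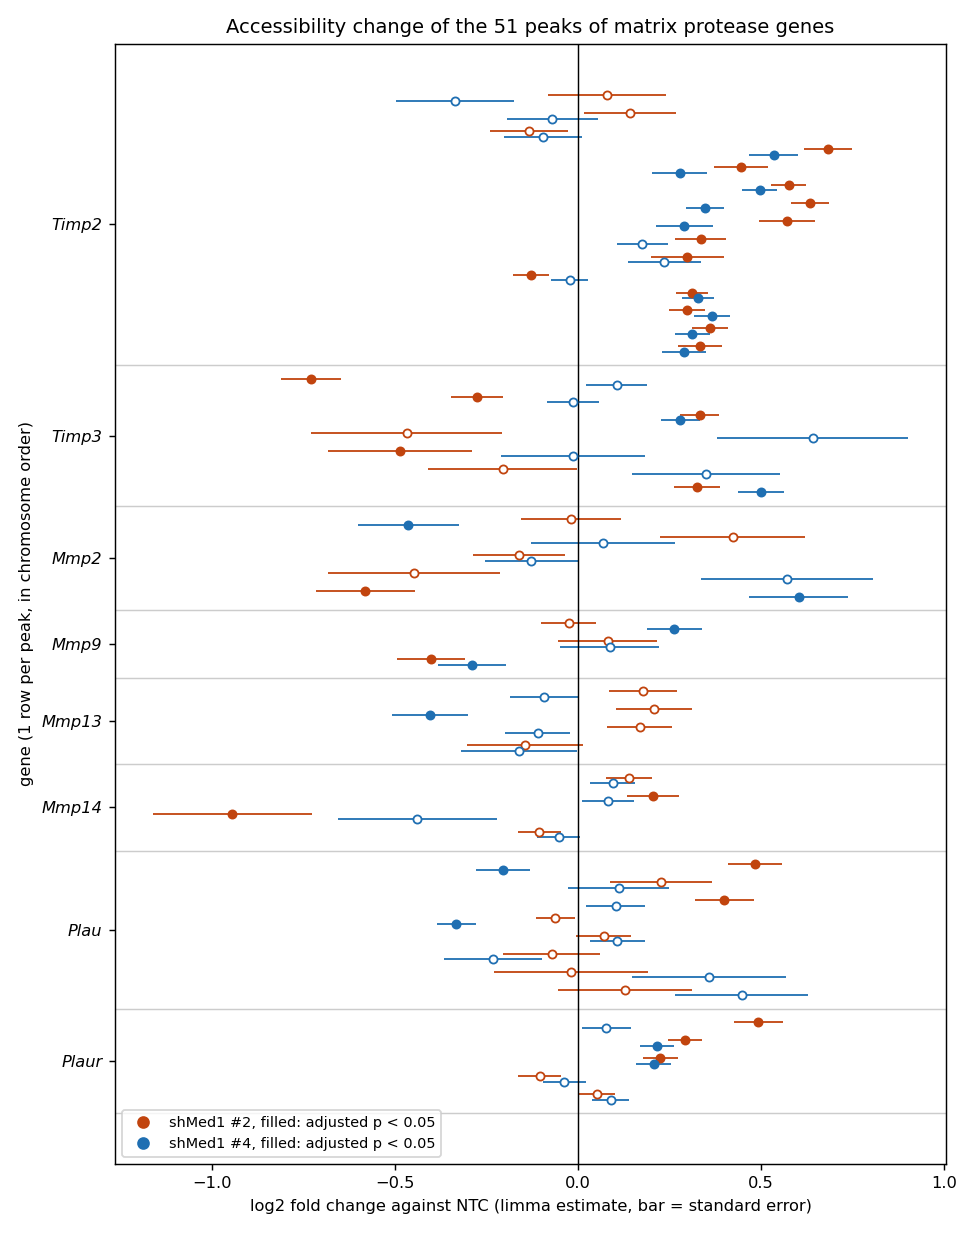
Log2 fold change against NTC (x axis, limma estimate with its standard error) of each of the 51 peaks, 1 row per peak and grouped by gene, for shMed1 #2 (orange) and shMed1 #4 (blue); filled points passed an adjusted p of 0.05. In Timp2 the called points lie to the right of 0 for both hairpins except at the start. The hairpins separate at some peaks only, among them peaks of Timp3, Mmp2, Mmp13 and Plau.

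Timp2 encodes a broadly secreted inhibitor that also takes part in the activation of pro-MMP2 at the cell surface. Of its 15 peaks, 11 rose and 0 fell in the mean of both hairpins, 11 rose and 1 fell with #2, and 9 rose and 0 fell with #4. The smallest adjusted p of all members was at a peak in the gene body (chr11:118327211-118327712), 27.9 kb into the gene, with 2903, 2613 and 2753 in NTC, 3812, 3998 and 4535 with #2, and 4076, 3834 and 3748 with #4. All 6 hairpin libraries lay above the NTC libraries. Means went from 2756 ± 145 in NTC to 4115 ± 375 with #2 and 3886 ± 170 with #4, a log2 fold change of 0.54 ± 0.04 in the mean (limma, adjusted p = 5.3e-15). A neighbour nearer the start, 25.1 kb into the gene (chr11:118330019-118330520), read 1449, 1429 and 1436 in NTC, 2109, 2269 and 2326 with #2, and 1918, 1768 and 1803 with #4. It rose with both hairpins, but less with #4 (0.35 ± 0.05) than with #2 (0.63 ± 0.05), and this difference passed the test as well (-0.29 ± 0.05, limma adjusted p = 3.17e-05). A peak deeper in the gene (chr11:118321939-118322440) had the largest fold among the members that rose. Its libraries read 782, 701 and 719.7 in NTC, 1119, 1184 and 1233 with #2, and 1043, 1142 and 1005 with #4, and its log2 change was 0.61 ± 0.06 (limma, adjusted p = 2.12e-12).

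Upstream of Timp2, 4 intergenic peaks between 5.8 and 11.2 kb from the start rose together. The strongest member peak of all in NTC (chr11:118363062-118363563) was among them, at 3174, 2996 and 3104 in NTC, 3404, 3772 and 4259.7 with #2, and 4045, 4115 and 3785 with #4. No hairpin library reached down to the NTC range, and the log2 changes were 0.30 ± 0.05 with #2 and 0.36 ± 0.05 with #4 (limma, adjusted p = 2.27e-06 and 6.89e-08). At the other 3 upstream peaks the changes in the mean were 0.32, 0.34 and 0.31. By contrast the peak over the annotated start (chr11:118355059-118355560), which holds the GC box printed above, did not pass in the mean: it read 2038, 1932 and 2050.03 in NTC, 1866, 1762 and 1879 with #2, and 1935, 1958 and 2031 with #4. With #2 it fell, with a log2 change of -0.13 ± 0.05 (limma, adjusted p = 0.0337), a call that was lost without NTC replicate 1, NTC replicate 3 or shMed1 #2 replicate 2. In the mean its change was -0.08 ± 0.04, and it passed as lower with equal totals, quantile scaling and cyclic loess.

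Further peaks inside Timp2 had mean log2 changes of 0.36, 0.43, 0.26 and 0.27, all past the threshold in the mean. With #4 alone, those at 0.26 and 0.27 did not pass (limma, adjusted p = 0.0522 and 0.0681), though they did under 6 and 3 of 20 alternatives. The peak at 0.43 (chr11:118337741-118338242) also lies in Cep295nl, a gene nested in Timp2, and with #4 it was lower than with #2 (-0.28 ± 0.08, limma adjusted p = 0.00528). That difference was lost without shMed1 #2 replicate 3. The peak at 0.27 (chr11:118349093-118349594) no longer passed, in the mean or with #2, with equal totals or without NTC replicate 3. The #4 change of 0.28 ± 0.07 at chr11:118324507-118325008 was lost without NTC replicate 3. A last peak inside the gene and 2 beyond its far end did not pass with either hairpin, at changes in the mean of -0.11, 0.04 and -0.13. The one at -0.13 passed as lower with #4 with equal totals. Summed over its 15 peaks, the Timp2 signal was 18616 ± 599 in NTC, 24022 ± 1507 with #2 and 23096 ± 579 with #4, a ratio to NTC of 1.29 and 1.24.

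**Figure D2:**
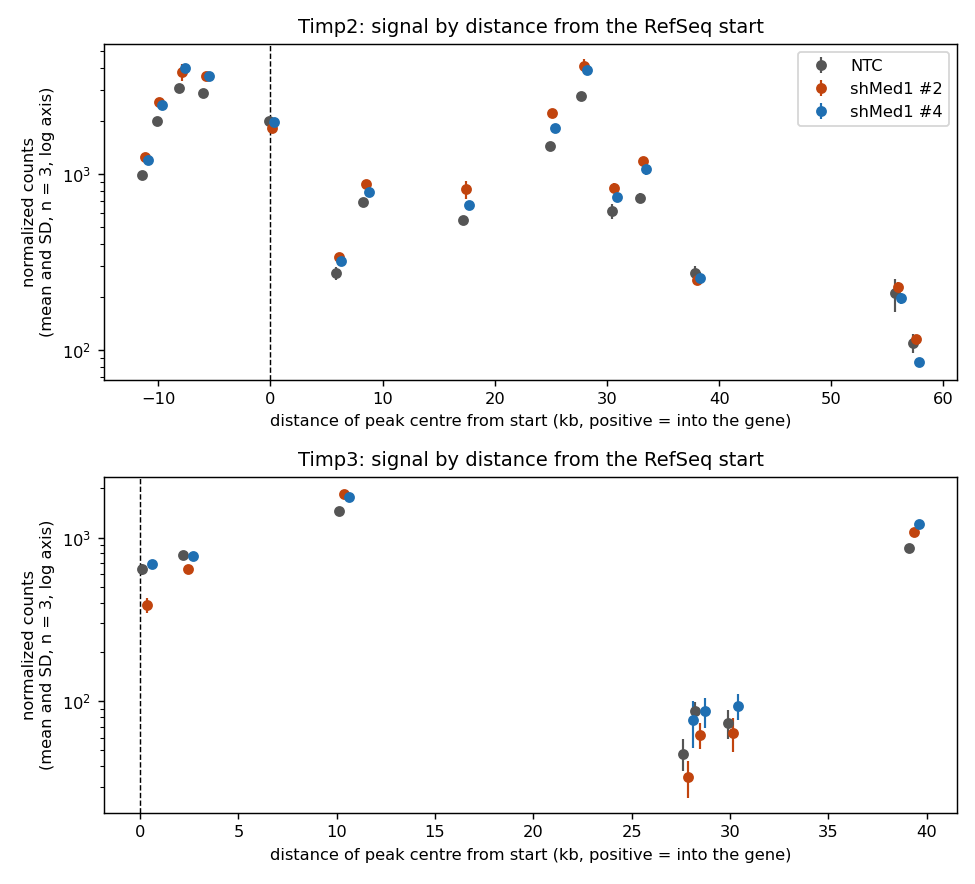
Normalized counts (y axis, log scale, mean and SD, n = 3) of the 15 Timp2 peaks and the 7 Timp3 peaks by the distance of their centre from the RefSeq start (x axis, kb, positive into the gene); the groups are set slightly apart sideways. At Timp2 both hairpins lie above NTC at the upstream peaks and at 7 peaks of the body but not at the start, and at Timp3 only #2 lies below NTC at the start, at 386 against 639.

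Timp3 encodes the inhibitor that stays bound to the matrix and also blocks ADAM proteases. The whole gene lies inside Syn3, a synapsin gene, so each of its 7 peaks is inside both. Of these, 2 rose and 1 fell in the mean, 2 rose and 3 fell with #2, and 2 rose and 0 fell with #4. The peak just after the start (chr10:86300527-86301028) read 688, 634 and 596 in NTC, 348, 380.1 and 429 with #2, and 675, 652 and 734 with #4. All 3 #2 libraries were below every NTC and #4 library, and NTC and #4 overlapped. Its log2 change was -0.73 ± 0.08 with #2 (limma, adjusted p = 4.21e-10) and 0.11 ± 0.08 with #4 (adjusted p = 0.358). The hairpins differed there by 0.83 ± 0.08 (limma, adjusted p = 5.64e-11), so its call as lower in the mean, -0.31, rests on #2. A peak 2.4 kb into the gene (chr10:86302601-86303102) was likewise lowest with #2, at 738, 782 and 816 in NTC, 683, 624 and 622 with #2, and 802, 769 and 741 with #4. It fell with #2 (-0.28 ± 0.07, limma adjusted p = 0.00149) and was -0.01 ± 0.07 with #4.

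Deeper in Timp3, the strong peaks rose with both hairpins. The one 10.4 kb from the start (chr10:86310531-86311032) was the strongest of the gene, with 1466, 1505 and 1412 in NTC, 1795, 1837 and 1886 with #2, and 1801, 1842 and 1680.3 with #4, and changed by 0.31 ± 0.05 in the mean (limma, adjusted p = 3.61e-07). The one at 39.3 kb (chr10:86339502-86340003) had 886, 848 and 839.8 in NTC, 1029.7, 1069 and 1127 with #2, and 1147, 1266 and 1229.7 with #4, a change of 0.41 ± 0.05 (limma, adjusted p = 2.02e-08). In both, the 6 hairpin libraries were above all NTC libraries. Between them lay 3 weak peaks with NTC means of 47.9 to 87.0, which include the member with the fewest reads in a library, 28. The first of these (chr10:86328035-86328536) was higher with #4 than with #2 by 1.11 ± 0.26 (limma, adjusted p = 0.00114). At the second (chr10:86328643-86329144) the fall with #2 of -0.49 ± 0.20 was lost under 5 of 20 alternatives, 3 of which left out NTC replicate 1, NTC replicate 2 or shMed1 #2 replicate 1. At the 3 weak peaks the changes with #2 were -0.47, -0.49 and -0.21, of which only -0.49 passed. The gene's summed signal was 3945 ± 84.0 in NTC, 4104 ± 140.2 with #2 and 4704 ± 64.1 with #4. The #2 sum thus stood at 1.04 of NTC, with the strong peaks of the body higher and the start lower. The #4 sum was at 1.19.

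Mmp2, which encodes gelatinase A, had 5 peaks, none of them within 1 kb of a gene end, and 0 passed in the mean of both hairpins. In its body (chr8:92847231-92847732) the libraries read 188, 198 and 152 in NTC, 103, 106 and 154 with #2, and 262, 292 and 262 with #4. Every #4 library stood above every NTC library, and 2 of the 3 #2 libraries below them all. It fell with #2 (-0.58 ± 0.14, limma adjusted p = 0.000486) and rose with #4 (0.60 ± 0.14, adjusted p = 0.000546), the widest gap between hairpins among the 51 peaks, at 1.18 ± 0.14 (adjusted p = 2.41e-09). A weak peak in the same gene body, 7.9 kb from the gene end (chr8:92834952-92835453) was also higher with #4 than with #2, by 1.02 ± 0.23 (limma, adjusted p = 0.000882), at 62.7, 51.6 and 63.6 in NTC, 29.9, 63.3 and 41.9 with #2, and 109, 91.3 and 69.0 with #4. Outside the gene, 15.9 kb from its nearer end (chr8:92811187-92811688), the order was the other way: 156, 173 and 140.3 in NTC, 154, 160.1 and 148 with #2, and 108, 115 and 116 with #4. That peak fell with #4 (-0.46 ± 0.14, limma adjusted p = 0.00826), and the call was lost without NTC replicate 2. The 2 remaining peaks did not pass in any contrast. The one 14.3 kb out, however, passed as higher with #2 with quantile scaling, cyclic loess or without NTC replicate 1. Against NTC, the weak body peak passed as higher with #4 under 8 of 20 alternatives. It also passed as lower with #2 without shMed1 #2 replicate 2.

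Mmp9, which encodes gelatinase B, had 3 peaks and again none within 1 kb of an end. The peak 2.4 kb from an end and inside the gene (chr2:164953163-164953664) read 413, 418 and 480.5 in NTC, 309, 327 and 355 with #2, and 348, 348 and 375 with #4. All 6 hairpin libraries were below all 3 NTC libraries, the only member peak that fell with each hairpin: -0.40 ± 0.09 with #2 (limma, adjusted p = 0.000405) and -0.29 ± 0.09 with #4 (adjusted p = 0.0145). The #4 call was lost without NTC replicate 3 or without shMed1 #4 replicate 2. An intergenic peak 9.0 kb away (chr2:164931093-164931594), the strongest of the gene, read 705, 670.1 and 672 in NTC, 592, 705 and 723 with #2, and 859, 835 and 766 with #4. It rose with #4 (0.26 ± 0.07, limma adjusted p = 0.00606) and was -0.03 ± 0.07 with #2, and the difference between hairpins passed too (0.29 ± 0.07, adjusted p = 0.00343). The third peak did not pass, at 0.08 ± 0.12 in the mean.

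Mmp13, a collagenase, and Mmp3, a stromelysin, lie in the MMP cluster of chromosome 9. The Mmp13 peak over the start (chr9:7272207-7272708), which contains the AP-1 and TATAAA letters printed above, was weak, at 128, 109.7 and 118 in NTC, 130.03, 97.9 and 96.1 with #2, and 114, 97.6 and 107 with #4. The groups overlapped, and its change in the mean was -0.15 ± 0.14 (limma, adjusted p = 0.391). At 9.0 to 13.9 kb before the start stood 3 stronger peaks, and each was lower with #4 than with #2. The middle one (chr9:7261576-7262077) read 337, 327 and 264 in NTC, 376, 341 and 351 with #2, and 230.5, 245 and 221 with #4. NTC lay between the hairpins with no overlap on either side, and the hairpins differed by -0.61 ± 0.10 (limma, adjusted p = 9.77e-06). It fell with #4 against NTC (-0.40 ± 0.10, adjusted p = 0.00217) and did not pass with #2 (0.21 ± 0.10, adjusted p = 0.0985). At its neighbours (chr9:7258387-7258888 and chr9:7263269-7263770) the difference between hairpins was -0.27 (limma, adjusted p = 0.0302) and -0.28 (adjusted p = 0.0184). These calls were lost under 7 and 4 of 20 alternatives, among them quantile scaling, cyclic loess, and leaving out shMed1 #2 replicate 3 or shMed1 #4 replicate 1. The first was also lost without shMed1 #2 replicate 1 or shMed1 #4 replicate 3. None of the 4 Mmp13 peaks passed in the mean or with #2.

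Mmp14 encodes a membrane-anchored collagenase (MT1-MMP) that activates pro-MMP2. The peak nearest its annotated start had its centre 2.0 kb into the gene (chr14:54433360-54433861) and read 1079.7, 1073 and 1008 in NTC, 1221, 1093 and 1169 with #2, and 1110.3, 1196 and 1071 with #4. It passed in no contrast (though as higher in the mean and with #2 when shMed1 #2 replicate 2 was left out), at 0.12 ± 0.05 in the mean (limma, adjusted p = 0.0791). The strongest, 7.0 kb past the far end (chr14:54449192-54449693), had all 6 hairpin libraries below NTC but a change of only -0.08 ± 0.05 (limma, adjusted p = 0.208), and it passed as lower with equal totals, quantile scaling and cyclic loess. A weak peak at the far gene end (chr14:54443125-54443626) fell: it read 86.8, 91.3 and 95.9 in NTC, 59.7, 34.6 and 50.1 with #2, and 56.3, 60.1 and 89.0 with #4. Its change was -0.69 ± 0.19 in the mean (limma, adjusted p = 0.00276) and -0.94 ± 0.22 with #2 (adjusted p = 0.00041), the largest fall among the members. With #4 the libraries overlapped NTC (-0.44 ± 0.22, limma adjusted p = 0.125), but the change passed as lower without shMed1 #4 replicate 3. The lowest library of this peak had 30 reads. The remaining one, inside the gene (chr14:54435109-54435610), rose with #2 by 0.20 ± 0.07 (limma, adjusted p = 0.017), a call lost without NTC replicate 3, without shMed1 #2 replicate 1 and under each of 3 other scalings (cyclic loess, quantile, equal totals).

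Plau encodes urokinase, the secreted plasminogen activator. The peak at the gene end (chr14:20836445-20836946) read 639, 589.9 and 594 in NTC, 619, 633 and 661 with #2, and 708, 638 and 619.8 with #4, and its groups overlapped (0.09 ± 0.07 in the mean, limma adjusted p = 0.281). Of the 4 intergenic peaks on that side, 3 differed between the hairpins, and the one 7.7 kb out did not pass (-0.12 ± 0.14, limma adjusted p = 0.609). Farthest out, 17.6 kb from the gene (chr14:20818822-20819323), values were 570.3, 595 and 590.5 in NTC, 851, 770.5 and 836 with #2, and 504, 500.5 and 519 with #4. The #2 libraries were above NTC and the #4 libraries below, with no overlap, and it rose with #2 (0.48 ± 0.07, limma adjusted p = 4.98e-07) and fell with #4 (-0.21 ± 0.07, adjusted p = 0.0305). The #4 call was lost without NTC replicate 2, NTC replicate 3, shMed1 #4 replicate 1 or shMed1 #4 replicate 2, while the difference between hairpins was -0.69 ± 0.07 (adjusted p = 4.41e-10). Together with the Mmp2 gene-body peak, this was 1 of 2 member peaks that passed in opposite directions.

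Closer to Plau, 5.3 kb out (chr14:20831085-20831586), the values were 501, 486 and 519 in NTC, 734, 623 and 636 with #2, and 551, 568 and 499.6 with #4, a rise with #2 (0.40 ± 0.08, limma adjusted p = 6.21e-05) and none past the threshold with #4 (0.10 ± 0.08). The strongest peak of the gene, 2.2 kb out (chr14:20834191-20834692), read 1675, 1839.9 and 1654 in NTC, 1682, 1633 and 1631 with #2, and 1388, 1340.03 and 1373 with #4. Here #4 was below both other groups in every library: it changed by -0.33 ± 0.05 against NTC (limma, adjusted p = 3.64e-06) and stood at -0.27 ± 0.05 against #2 (adjusted p = 0.000147). With #2 it was -0.06 ± 0.05, which did not pass, though it passed as lower with equal totals, quantile scaling and cyclic loess. The 4 other Plau peaks, 3 of them on the opposite side at 4.5 to 42.3 kb, passed in none of the contrasts. The one at 42.3 kb passed as higher with #4 with quantile scaling and cyclic loess.

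Plaur encodes the urokinase receptor uPAR. Its gene model begins before the RefSeq start of the printed sequence, and 4 of its 5 peaks lay within 5 kb of that start. At that outer end both gene-end peaks rose with each hairpin. The stronger (chr7:24459730-24460231), the strongest of the gene, read 2145, 2120.1 and 2142 in NTC, 2608, 2533 and 2712 with #2, and 2585, 2477 and 2386 with #4, and changed by 0.25 ± 0.04 in the mean (limma, adjusted p = 1.18e-06). The other (chr7:24461330-24461831) read 2105, 1921 and 1984 in NTC, 2339.6, 2279 and 2398 with #2, and 2309.7, 2311 and 2311 with #4, a change of 0.22 ± 0.04 (adjusted p = 3.73e-05). In both, no hairpin library fell into the NTC range. Their calls with #4 (0.22 ± 0.05 and 0.21 ± 0.05) were lost with cyclic loess, and the latter with quantile scaling as well. The peak over the RefSeq start (chr7:24462352-24462853), with the AP-1 letters, read 1549.8, 1461 and 1331 in NTC, 1319, 1263 and 1453 with #2, and 1378, 1415 and 1431 with #4 and did not pass (-0.07 ± 0.05 in the mean, limma adjusted p = 0.278), though it passed as lower with equal totals, quantile scaling and cyclic loess. Farther out, 3.1 kb from the gene (chr7:24457620-24458121), the values were 977, 922 and 880.2 in NTC, 1229, 1229 and 1462 with #2, and 934, 982 and 1015 with #4. Only the #2 libraries stood above NTC without overlap, with 0.49 ± 0.07 (limma, adjusted p = 2.91e-08) against 0.08 ± 0.07 with #4 and a difference between hairpins of -0.41 ± 0.07 (adjusted p = 3.63e-06). The peak 5.4 kb inside the gene did not pass (0.07 ± 0.04 in the mean).

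**Figure D3:**
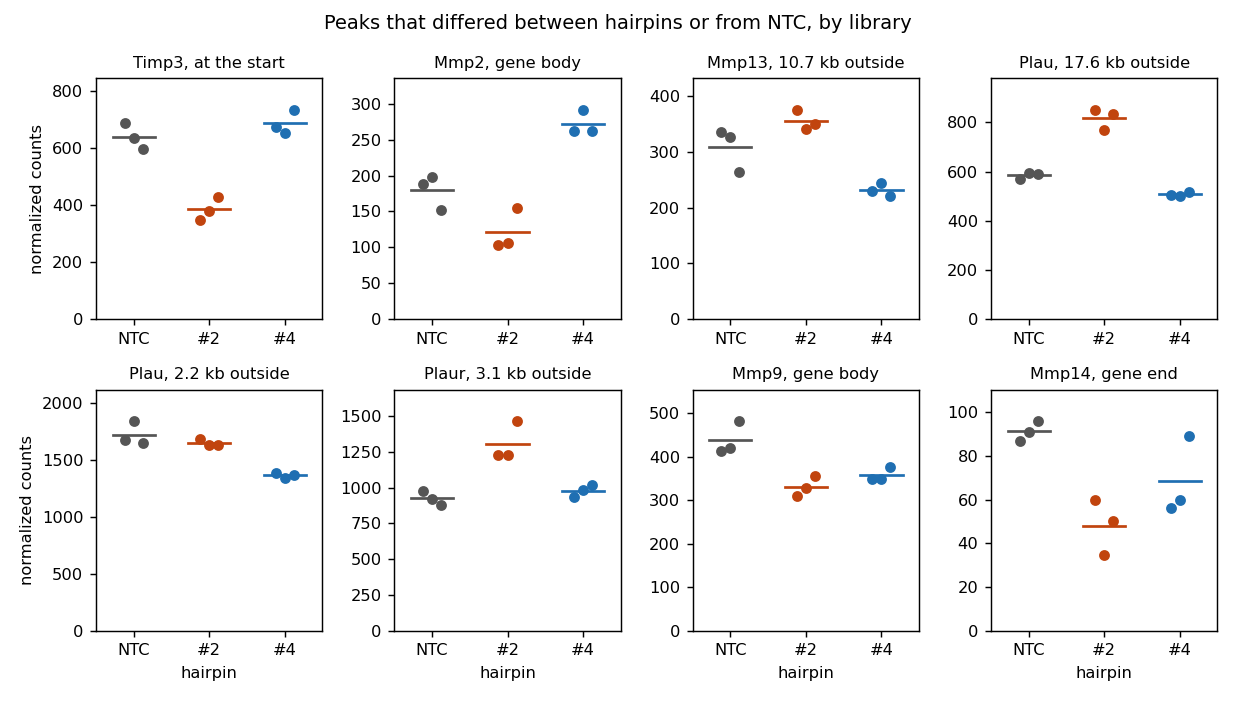
Normalized counts (y axis, from 0) in each of the 9 libraries (points) with the group mean (line) for 8 peaks, by hairpin (x axis: NTC, shMed1 #2, shMed1 #4). NTC lies between the hairpins without overlap at the Mmp13 and the 17.6 kb Plau peak, and the #2 libraries stand alone at Timp3 (low) and Plaur (high).

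Against each other, #4 and #2 differed at 18 of the 51 peaks, 8 higher and 10 lower with #4 (35.3%, beside 21.5% of all peaks tested, 8.48% higher and 13.0% lower). The higher ones were 5 of the 7 Timp3 peaks, 2 Mmp2 peaks and 1 Mmp9 peak. The lower ones were 3 Mmp13, 3 Plau, 2 Timp2, 1 Plaur and 1 Mmp2 peak. No Mmp14 peak passed this contrast. Of these calls, 6 were lost under some alternative. At Timp3 they were the peak at 39.3 kb, lost when NTC replicate 2, shMed1 #2 replicate 1 or 2, or shMed1 #4 replicate 2 or 3 was left out, and the weak peak at 30.1 kb, lost without shMed1 #2 replicate 1 or 2 or shMed1 #4 replicate 1 or 2. The outer Mmp2 peak lost its call without shMed1 #2 replicate 2. Against NTC, 13 peaks rose with each hairpin, 1 fell with each, 2 passed in opposite directions and 21 passed with neither. The matching shares over all peaks were not worked out, so these counts have no background beside them. Over all peaks, 43.1% passed with #2 and 29.4% with #4, against the same NTC libraries. Summed per gene, the order of groups differed from gene to gene. The Mmp13 sum was 1181 ± 78.5 in NTC, 1313 ± 59.4 with #2 and 1041 ± 43.0 with #4, and the Plau sum was 3870 ± 69.8, 4241 ± 111 and 3549 ± 93.0. At Mmp2 the sums were 664 ± 81.6, 590 ± 32.6 and 728 ± 31.1, and at Mmp9 1266 ± 33.2, 1158 ± 103 and 1332 ± 36.8. Plaur had 8326 ± 212, 9486 ± 380 and 9108 ± 85.9, and Mmp14 3187 ± 98.1, 3287 ± 163 and 3240 ± 150. Such a sum is led by its strongest peaks and is given without a test. It is also not corrected for the totals over all peaks, which averaged 41.3 M in NTC, 43.9 M with #2 and 43.4 M with #4.

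**Figure D4:**
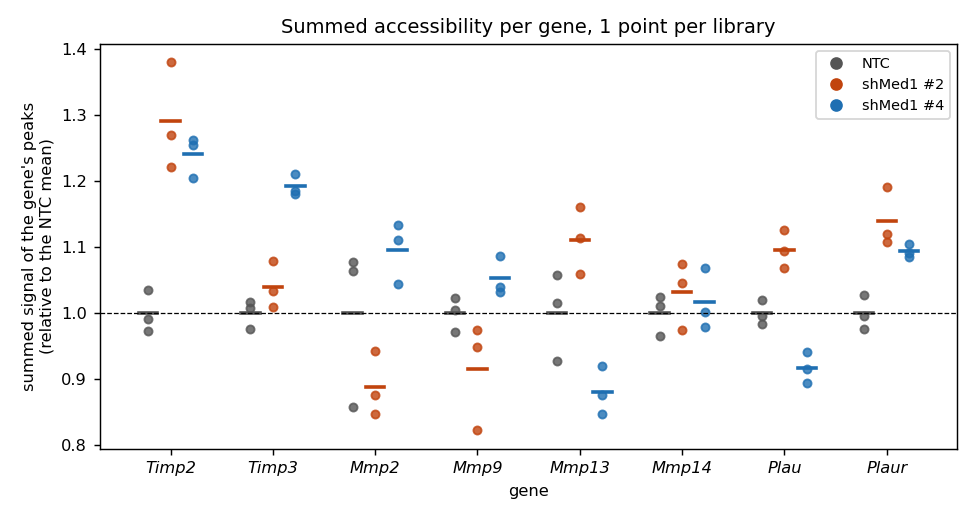
Summed normalized counts of each gene's peaks divided by the NTC mean of that sum (y axis, which does not start at 0), 1 point per library and a line at the group mean, for the 8 genes with peaks (x axis). Both hairpins stand above all NTC libraries at Timp2 and Plaur, with group means of 1.29 and 1.24, and of 1.14 and 1.09. They lie on opposite sides of NTC at Mmp13 and Plau. Totals over all peaks were also above NTC, at 43.9 M with #2 and 43.4 M with #4 against 41.3 M.

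Over all peaks, 22.1% were higher and 17.7% lower in the mean, and shares for peaks of like place or strength were not worked out. By role, the TIMP genes held 13 of the 17 higher calls in the mean over 22 peaks, with 1 lower. Of these 13, 11 were neighbouring peaks of Timp2, while Timp3 had 2 higher and 1 lower of 7. The MMP genes held 0 higher and 2 lower of 16, and Plau with Plaur 4 higher and 1 lower of 13. By place, 7 gene-end peaks had 2 higher and 2 lower calls, 22 gene-body peaks 9 and 1, and 22 intergenic peaks 6 and 1. Either end counts here, so these are not all promoters: the lower call at Mmp14 lay at its far end. Both higher gene-end calls were at Plaur, whose peak over the RefSeq start counted as gene body. By strength, the 26 peaks with the higher NTC means had 14 higher and 2 lower calls, and the 25 weaker ones 3 and 2. Precision moved with strength: 39 peaks had at least 100 reads in every library and 4 had under 50 in some library, and the standard error of the mean contrast ran from 0.04 at the strongest Timp2 peaks to 0.23 at the weakest Timp3 peak. The part of strength in the split between the gene groups was not tested.

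Other genes of these systems were taken from fixed lists, with peaks assigned in the same way and counts given for the mean of both hairpins. Of 36 peaks of 13 other MMP genes, 7 rose and 6 fell (36.1% called, median log2 change -0.04). A peak of Mmp28, epilysin (chr11:83467197-83467698), rose from 825 ± 61.6 in NTC to 1250.2 ± 60.02 with #2 and 1194 ± 42.8 with #4, and a peak of Mmp24, a membrane-type MMP (chr2:155811627-155812128), changed by -0.54 ± 0.10. Of 5 peaks of other MMP inhibitors, from 2 of 5 genes, 1 rose, at Reck, a membrane-anchored inhibitor (chr4:43931883-43932384, 0.75 ± 0.13, limma adjusted p = 7.04e-06). Of 69 peaks of the plasminogen system, 30 rose and 14 fell (63.8% called, median 0.05). A peak of Plat, tissue plasminogen activator (chr8:22764364-22764865), rose from 1712 ± 76.1 to 2599.8 ± 103 and 2060.2 ± 50.7, and one of Anxa2, a plasminogen-binding annexin (chr9:69453489-69453990), fell, with a log2 change of -0.28 ± 0.05.

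Of 30 peaks of membrane serine proteases and their inhibitors, 8 rose and 3 fell (36.7%, median 0.02). A peak of Htra1, a secreted serine protease (chr7:130977680-130978181), rose by 0.53 ± 0.05, and one of Spint1, a Kunitz inhibitor (chr2:119250721-119251222), changed by -0.28 ± 0.07. Of 157 ADAM and ADAMTS peaks, 36 rose and 24 fell (38.2%, median 0.02). Examples were Adamts2, the procollagen N-proteinase (chr11:50672809-50673310, 0.74 ± 0.07), and Adam15 (chr3:89340462-89340963, -0.47 ± 0.09). Cathepsins and cystatins had 11 higher and 7 lower calls among 39 peaks (46.2%, median 0.12), with Ctsb (chr14:63132263-63132764) at 0.24 ± 0.05 and Ctsc (chr7:88242974-88243475) at -0.57 ± 0.11. Among 96 peaks of activators and partners of the 9 genes, 31 rose and 16 fell (49.0%, median 0.03). Itgb3, the integrin chain that pairs with alpha V and binds vitronectin (chr11:104624603-104625104), went from 942 ± 82.1 to 1414 ± 75.6 and 1532 ± 19.0, and Itga3 (chr11:95046938-95047439) changed by -0.37 ± 0.08. All of these compare with 39.8% called and a median of -0.01 over all peaks, and Lrp1 counts in both the plasminogen and the partner list.

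The pattern most like that of the Timp2 peak with the smallest adjusted p (chr11:118327211-118327712) was sought among 417 peaks of these lists, by Pearson correlation of log2 values over the 9 libraries. The Mmp28 peak above had r = 0.983, 2 Htra1 peaks 0.983 and 0.964, an Anxa2 peak (chr9:69467485-69467986) 0.971 and an Adamts14 peak (chr10:61277933-61278434) 0.961. These values describe libraries that fall into the same 3 groups, and the points share library and scaling.

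Over the whole series, reads in peaks ran from 34.8 M to 53.7 M per library. The Med1 gene-end peak (chr11:98192989-98193490) stood at 2114 ± 41.3 in NTC, 2023 ± 143 with #2 and 1971 ± 73.1 with #4, and accessibility does not show whether Med1 was lowered. Gene-end peaks were found for 4 of 5 mesenchymal markers, with sums from 14585 to 15664 per library, and for 1 of 6 epithelial markers, Krt18 (235 to 306 in NTC, 154 to 189.7 with #2 and 209 to 254 with #4), while Epcam, Cdh1, Krt8, Krt19 and Krt7 had none in the table. Of 6 blood, 4 endothelial, 4 adipocyte and 4 neural markers, 4, 1, 0 and 2 had one, with sums of 949 to 1168 for blood and at most 239.8 for the others; Ptprc, Pecam1 and Adipoq had none. The part of these lists in the results was not tested. Replicates are called biological in the labels with no word on the cultures, so a p-value reflects the spread among these libraries alone, which may be technical.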

How the data were processed

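Values were analysed for 9 ATAC-seq libraries (3 per group). The submitters' processing notes name Trim Galore, BWA, MACS2, Subread and featureCounts, with mm10 as the build; the sources used here do not state their versions or how peaks were merged. As deposited, each value is a normalized signal of 1 peak in 1 library, which the authors named normalized counts by DESeq2. In each library 100% of values were whole multiples, within 0.01, of a step, which gave the reads; the lowest nonzero values stood for 2 or 3 reads, so count models were not run. Log2(value + 1) was fitted with limma 3.58.1 (R 4.3.3) where a peak averaged 10 or more (75930 kept, 6 removed), with 1 mean per group and contrasts between them. The fit was tried on simulated data in which few peaks were moved, with #2 only, and all peaks had the same spread. Such data cannot test the scaling between groups. Coordinates are as deposited; whether they count from 0 or 1 is not stated. Genes came from RefSeq GRCm38.p6.

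Members and lists were chosen with earlier results of these data known. Named per gene were gene-end peaks (within 1 kb), the strongest peak, and up to 4 called peaks each way in the mean and 2 each way in #4 against #2; per list, the smallest adjusted p each way. The Timp2 peaks with smaller changes, and further peaks, were named after their values were seen. Groups of replicate numbers were checked for pairing, and scaling, filters, pseudocounts, assignment and left-out libraries were varied; voom on the worked-out reads was added after seeing the data.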

Additional observations from a re-analysis of the deposited data

Results flagged for a closer look

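At 18 of the 51 peaks the effects of the 2 hairpins differed by the test of #4 against #2 (limma, adjusted p under 0.05). This is 35.3%, beside 21.5% of all peaks tested (8.48% higher and 13.0% lower with #4). Values are log2 of #4 over #2. Timp3 had 5 such peaks, at 0.83 by the start (chr10:86300527-86301028), 0.26, 1.11, 0.56 and 0.18 (86302601, 86328035, 86330303 and 86339502). Mmp2 had 1.18 and 1.02 in its body (chr8:92847231-92847732 and chr8:92834952-92835453) and -0.44 outside it. Mmp9 had 0.29 at its intergenic peak. The Mmp13 peaks before the start were at -0.61, -0.28 and -0.27, and those of Plau at -0.69, -0.30 and -0.27 (17.6, 5.3 and 2.2 kb from the gene). The outermost Plaur peak was at -0.41, and 2 peaks in Timp2 at -0.29 and -0.28. In 2 of these, the Mmp2 body peak at 1.18 and the Plau peak at -0.69, the hairpins passed against NTC in opposite directions. The share of such peaks over all peaks was not worked out.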

How the results depend on the processing

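Under 23 alternatives, counts of member peaks past the threshold stayed within 1.5 times of the reported ones except for lower peaks. In the mean of both hairpins 4 fell, but 9 with equal totals, 8 with quantile scaling and 8 with cyclic loess. With #4 5 fell, and 3 to 6 when a library was left out. No called change of a member peak reversed. Of the called peaks, 20 of 21 in the mean, 22 of 26 with #2, 14 of 20 with #4 and 12 of 18 in #4 against #2 passed under every alternative that could be fitted. Assignment to the nearest gene end alone gave 52 peaks, 44 of them shared, with 13 higher and 5 lower in the mean.

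Same-numbered libraries did not deviate together (r from -0.08 to 0.03 over 9 pairs), so no effect shared by replicate number was seen. This check cannot tell whether the libraries were prepared in numbered sets, which the labels do not state. With a replicate block, 17 rose and 4 fell in the mean, 19 and 7 with #2, 16 and 5 with #4, and 7 were higher and 10 lower in #4 against #2, where the Timp3 peak at 39.3 kb no longer passed (limma, adjusted p = 0.0508). The planned edgeR and DESeq2 fits were not run, since no value of a single read was seen. Weak peaks are limited by depth, with as few as 28 reads.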
